A study of Mus musculus with 2 samples.

Results

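The genes described are those of the Fc gamma receptors, of C1q and of the anaphylatoxin receptors, 10 genes chosen by symbol: Fcgr1, Fcgr3, Fcgr4, Fcer1g, Fcgr2b, C1qa, C1qb, C1qc, C3ar1 and C5ar1. All 10 were found, each with 1 probe set that carries a single gene symbol, among 22180 genes named in that way. Values came from 2 Affymetrix arrays of RAW264.7, an established mouse macrophage line. One array is labelled HuR-deficient, with HuR-KO in its title, and the other wildtype, and both cultures were transfected for 8 hours, by means of lipofectamine, with poly(I:C) of high molecular weight, which mimics viral double-stranded RNA, at a stated 1 mg/ml. The labels thus name a knockout, but not how it was made, which part of the gene it affects or whether the cells are 1 clone. HuR, the product of Elavl1, binds mRNAs and stabilises many of them. Each group had 1 array, and stimulation was common to both, so the values give neither a spread between replicates nor the response to poly(I:C), and no test was possible between the cultures.

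Fc gamma receptors bind the constant part of IgG antibodies and let macrophages take up and kill antibody-coated targets. Activating receptors signal through the paired tyrosines (ITAM) of the common gamma chain, encoded by Fcer1g, whereas the inhibitory receptor, encoded by Fcgr2b, carries its own inhibitory motif (ITIM) and recruits phosphatases. The balance between them sets the threshold of the response to immune complexes. C1q starts the classical complement pathway on such complexes, and macrophages are among its main producers. C3a and C5a, released as the cascade runs, act on G protein-coupled receptors that attract and arm myeloid cells.

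Signals are log2 values made with RMA, and differences are those of the array labelled HuR-deficient minus the wildtype array. The arrays had 41345 probe sets each, with a median signal of 4.10 on the array labelled HuR-deficient and 4.08 on the wildtype array, and the difference over all named genes had a median of 0.00 and an SD of 0.392. Elavl1 (Entrez Gene 15568) had a signal of 7.75 on the array labelled HuR-deficient and 7.68 on the wildtype array, so its mRNA did not separate the arrays. Whether the probe set lies in a part removed by the knockout is not stated, so this value does not check the label, and every direction is that of the array so labelled. Of 8 macrophage markers, 7 passed the signal filter, which asked that the higher of the 2 values reach 4.38, the median of all named values. Lyz2 had 12.20 on the array labelled HuR-deficient and 12.34 on the wildtype array, Cd68 had 11.34 and 11.55 in the same order, and Mertk (3.50 and 2.78) did not pass. Lyz2 and Mertk are named after their values were seen. Spi1, which encodes PU.1, differed by 0.33 and the integrin gene Itgam by -0.33. Adgre1, a surface marker of mouse macrophages, was the only 1 of the 7 past 2-fold. It had 6.51 on the array labelled HuR-deficient and 4.94 on the wildtype array, a difference of 1.57. Measured markers of other cell types passed as follows: 1 of 5 for B cells (Pax5), 2 of 6 for T and NK cells (Cd3e and Cd4), 1 of 6 for mast cells and basophils (Kit), 1 of 6 for neutrophils (Cxcr2) and 3 of 5 for dendritic cells (Xcr1, Siglech and Ccr7). None of those of other cell types that passed differed by 2-fold. Over all named genes 11905 of 22180 passed, so passing alone does not show that a gene was expressed. Of the 11905, 0.882% were higher by 2-fold or more and 1.11% lower.

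The IgG receptor genes lie in a cluster on chromosome 1, except Fcgr1 on chromosome 3. Fcgr3 and Fcgr2b had lower signals and Fcgr4 and Fcgr1 higher signals on the array labelled HuR-deficient. Of genes that passed the filter, 64.2% differed by at least as much as Fcgr1 and 18.6% by at least as much as Fcgr4. The sign of Fcgr1 therefore gives no direction. The stretch around the start sites of the 4 genes is shown as a description, not as an account of these signs. Sequences run 5′ to 3′ from 250 bases before the start site to 50 bases from it onward, on the gene's strand, and come from RefSeq. Capitals mark matches to 2 motifs searched on both strands: GAGGAA, the core bound by the macrophage factor PU.1, and GAAANNGAA, a shortened core of the interferon-stimulated response element (ISRE).
Fcgr3 (GRCm38.p6, chr1:171059354-171059653, minus strand): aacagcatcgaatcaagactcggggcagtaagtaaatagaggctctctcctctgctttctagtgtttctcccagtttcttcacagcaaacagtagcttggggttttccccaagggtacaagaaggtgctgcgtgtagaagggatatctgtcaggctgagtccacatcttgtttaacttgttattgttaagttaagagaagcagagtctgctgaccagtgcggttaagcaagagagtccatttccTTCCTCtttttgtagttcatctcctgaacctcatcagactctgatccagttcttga
Fcgr2b (GRCm38.p6, chr1:170976022-170976321, minus strand): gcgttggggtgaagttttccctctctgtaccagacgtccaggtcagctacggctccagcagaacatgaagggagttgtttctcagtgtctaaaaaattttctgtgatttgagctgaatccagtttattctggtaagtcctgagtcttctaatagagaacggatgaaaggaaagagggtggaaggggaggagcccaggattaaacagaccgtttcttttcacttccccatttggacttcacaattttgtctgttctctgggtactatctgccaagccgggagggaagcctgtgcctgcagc
Fcgr4 (GRCm38.p6, chr1:171018676-171018975, plus strand): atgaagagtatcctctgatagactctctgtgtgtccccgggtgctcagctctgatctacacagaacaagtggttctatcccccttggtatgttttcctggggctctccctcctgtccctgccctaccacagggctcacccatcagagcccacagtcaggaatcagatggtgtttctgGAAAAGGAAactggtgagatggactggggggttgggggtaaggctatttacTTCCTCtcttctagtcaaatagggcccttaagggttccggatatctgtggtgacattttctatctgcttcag
Fcgr1 (GRCm38.p6, chr3:96293920-96294219, minus strand): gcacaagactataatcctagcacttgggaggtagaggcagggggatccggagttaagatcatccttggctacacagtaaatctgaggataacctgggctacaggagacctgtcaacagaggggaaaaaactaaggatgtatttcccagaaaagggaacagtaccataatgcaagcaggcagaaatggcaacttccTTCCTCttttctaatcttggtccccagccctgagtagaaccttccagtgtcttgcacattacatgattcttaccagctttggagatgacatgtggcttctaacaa

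The PU.1 core was found in Fcgr3, directly before the start site at bases -6 to -1, in Fcgr4 at -22 to -17 and in Fcgr1 at -55 to -50, all on the opposite strand. Fcgr4 also held an ISRE core at -73 to -65. No match overlapped another, and neither motif was found in the window of Fcgr2b. Windows were available for 9 of the 10 genes, all but C1qa, and where a gene has several start sites the first entry was used. The PU.1 core was found in 5 of these 9, against 28.3% of 32851 mouse windows of the same length, and the ISRE core in 2 of 9 (Fcgr4 and C5ar1), against 8.56%. The motifs were chosen after the values were seen, and a match describes letters and is not a binding site.

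Fcgr3 encodes FcgammaRIII, an activating low-affinity receptor for IgG immune complexes. Its signal (Entrez Gene 14131, probe set 17229620) was 4.97 on the array labelled HuR-deficient and 6.06 on the wildtype array. The difference of -1.08, or 2.11-fold lower, was the only one of the 10 past 2-fold, a size that 1.11% of the 11905 genes that passed the filter reached in this direction and 1.99% in either. Both values lay above the floor of 4.38, which is the median of all named values and not a detection limit. Detection calls were not used for Fcgr3 either. Fcgr3 ranked 101st from the lowest among the genes that passed, and 1.51% of the others differed by at least as much in either direction. Of 3215 genes with a mean signal within 0.5 log2 units of that of Fcgr3, 1.18% did.

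Fcgr4 encodes FcgammaRIV, an activating receptor of mouse monocytes and macrophages for IgG2a and IgG2b. It had 9.30 on the array labelled HuR-deficient and 8.84 on the wildtype array (Entrez Gene 246256, probe set 17219199), a difference of 0.46 or 1.38-fold higher. Fcgr1 encodes FcgammaRI, the high-affinity receptor that also binds single IgG molecules. It had 12.48 on the array labelled HuR-deficient and 12.32 on the wildtype array (Entrez Gene 14129, probe set 17408024), a difference of 0.15. Fcgr4 was thus on the other side of 0 from its neighbour Fcgr3, but 18.6% of all genes that passed differed by as much as Fcgr4 and 64.2% by as much as Fcgr1.

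Fcer1g encodes the gamma chain with which these activating receptors are assembled and signal. Its signal was 11.59 on the array labelled HuR-deficient and 11.66 on the wildtype array (Entrez Gene 14127, probe set 17229658), a difference of -0.07 that 83.6% of genes exceeded or equalled. The gamma chain transcript thus showed hardly any difference. The receptor genes that depend on it went both ways, at -1.08 (Fcgr3), 0.15 (Fcgr1) and 0.46 (Fcgr4). Fcgr1 and Fcer1g have signals near the top of the scale. None of the 105 genes within 0.5 log2 units of Fcgr1 and none of the 205 within that distance of Fcer1g reached 2-fold, with largest absolute differences of 0.78 and 0.91. Whether the arrays compress differences at such signals was not tested.

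Fcgr2b encodes the inhibitory receptor FcgammaRIIB, the counterweight to the activating ones on macrophages and B cells. It had 6.22 on the array labelled HuR-deficient and 6.81 on the wildtype array (Entrez Gene 14130, probe set 17229607), a difference of -0.59 or 1.502-fold lower. Among genes that passed, 10.7% differed by at least as much, and among the 1630 nearest in signal 10.5% did, so its difference is not unusual for these arrays. The extracellular parts of the mouse Fcgr2b and Fcgr3 products are known to be closely alike. Whether either probe set also reads the other transcript was not tested.

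Activating and inhibitory genes were set side by side by their differences, since signals of different probe sets cannot be compared. The 4 activating genes had differences of -1.08 (Fcgr3), -0.07 (Fcer1g), 0.15 (Fcgr1) and 0.46 (Fcgr4), with a median of 0.04. Fcgr2b, at -0.59, lay 0.63 below that median, a value of -0.63 for inhibitory minus activating, and inside the range of the 4. With the mean of the activating genes (-0.13) in place of the median, it was -0.45. The spread among the activating genes was thus wider than their distance from Fcgr2b. This rests on Fcgr3, since the other activating genes, from -0.07 to 0.46, all lay above Fcgr2b. Fcgr2b was the only inhibitory gene, so whether the differences form an activating and an inhibitory group cannot be judged.

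**Figure D1:**
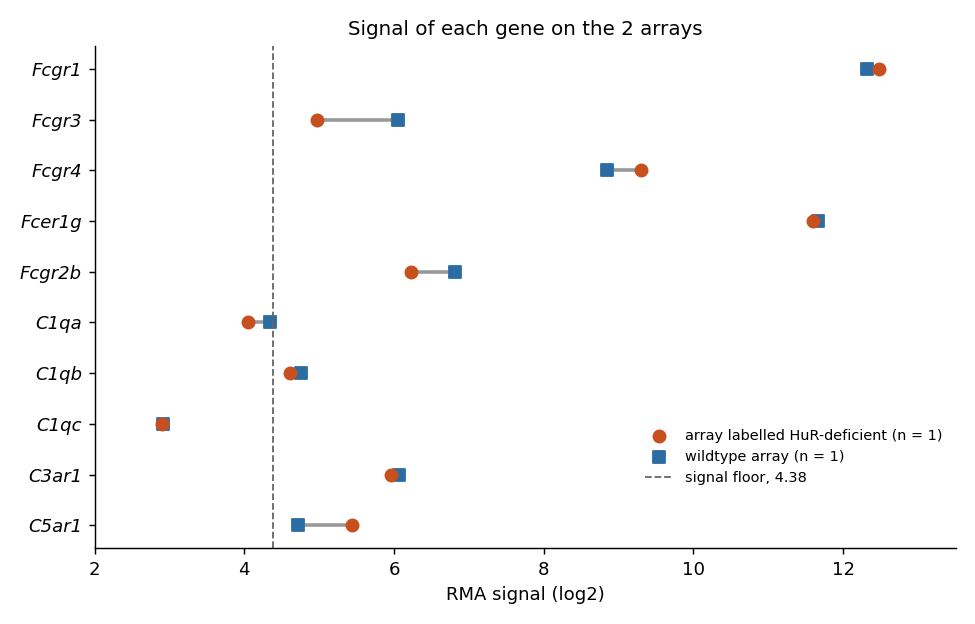
RMA signal (log2) of the 10 genes on the array labelled HuR-deficient (circles) and the wildtype array (squares), 1 array each, joined by a line per gene; the dashed line is the signal floor of 4.38. Fcgr3 has the widest gap, 4.97 against 6.06, C5ar1 runs the other way, 5.44 against 4.72, and C1qa and C1qc lie below the floor on both arrays.

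C1q is built from A, B and C chains, all of which are needed for the assembled molecule. C1qb had 4.61 on the array labelled HuR-deficient and 4.76 on the wildtype array (Entrez Gene 12260, probe set 17431607), a difference of -0.15. C1qa had 4.05 and 4.34 in the same order (Entrez Gene 12259, probe set 17431619), a difference of -0.29. C1qc had 2.90 and 2.92 (Entrez Gene 12262, probe set 17431612), a difference of -0.01.

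Of the 3 chains C1qb alone passed the filter, and by a narrow margin. All 3 differences were below 0, but none reached 1.5-fold, as 10.8% of genes that passed did, and 64.9% of genes that passed differed by at least as much as C1qb. Detection calls were not used here, so it is not shown that any C1q chain was measured above background on either array. Whether C1q transcripts differed could therefore not be judged.

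C5ar1 encodes the C5a receptor, the stronger of the anaphylatoxin signals for neutrophils and macrophages. It had 5.44 on the array labelled HuR-deficient and 4.72 on the wildtype array (Entrez Gene 12273, probe set 17486864), a difference of 0.72 or 1.64-fold higher, the largest positive one of the 10. It ranked 347th from the highest among the genes that passed, and 6.02% of the others differed by at least as much. The wildtype value lay close to the floor. C3ar1, which encodes the C3a receptor, had 5.97 on the array labelled HuR-deficient and 6.07 on the wildtype array (Entrez Gene 12267, probe set 17470616). Its difference of -0.11 was exceeded or equalled by 74.4% of genes and gives no direction.

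Over all 10 genes, 3 differences lay above 0 and 7 below, with a median of -0.09, against 10903 above and 10273 below 0 and a median of 0.00 over all named genes. Of the 10, 8 passed the filter, each of them on both arrays. Among these 8, 1 was lower by 2-fold or more (Fcgr3) and 0 were higher by as much, beside 1.11% of all 11905 genes lower and 0.882% higher, or 1.99% in either direction. At 1.5-fold, 3 of the 8 (Fcgr3, Fcgr2b and C5ar1, 37.5%) were counted, against 10.8% of all genes. By direction this was 1 higher beside a background of 5.44% and 2 lower beside 5.32%. Fcgr2b lay just inside that threshold, at 1.502-fold, and Fcgr4 was the next below it, at 1.38-fold. With 8 genes and 1 array per group, these counts describe the arrays and do not test the receptors as a group.

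**Figure D2:**
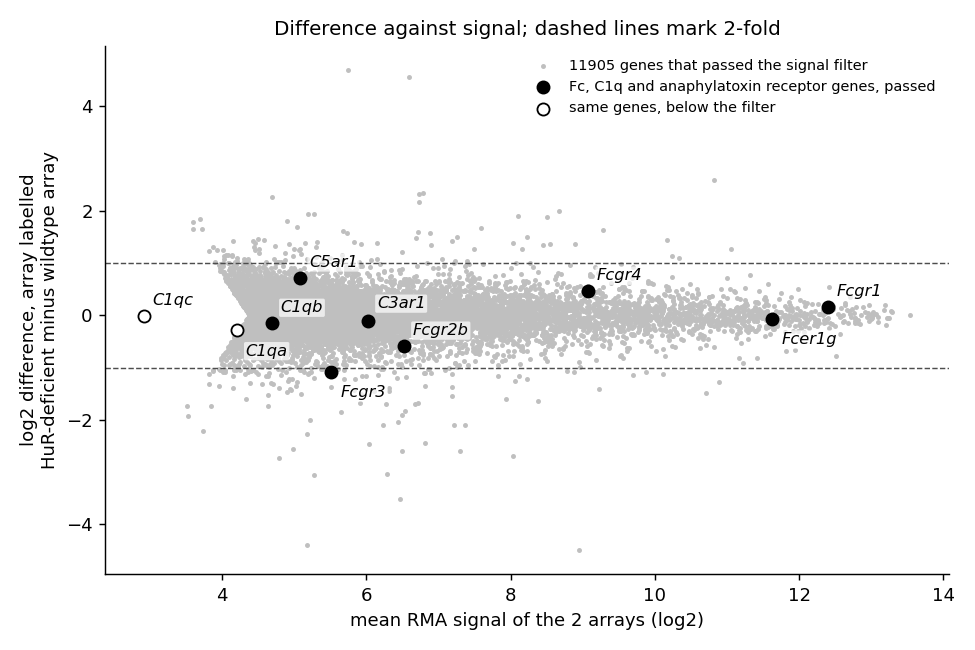
Log2 difference (array labelled HuR-deficient minus wildtype array) against mean log2 signal for the 11905 genes that passed the filter (grey) and the 10 genes described (black if they passed, open if not); dashed lines mark 2-fold. Fcgr3 lies just beyond the lower line at -1.08, C5ar1 reaches 0.72, and Fcgr1 and Fcer1g sit where no nearby gene crosses a line.

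In gene order on chromosome 1, Fcgr2b, Fcgr4 and Fcgr3 follow each other among the measured genes, and their differences alternated, with -0.59, 0.46 and -1.08. The gene on the outer side of Fcgr3, Cfap126, differed by 0.31, and Fcrla, on the outer side of Fcgr2b, had low signals of 3.39 on the array labelled HuR-deficient and 2.92 on the wildtype array. The lower signals of Fcgr3 and Fcgr2b were therefore not shared by the gene between them. C5ar1 lies between C5ar2, which encodes the second C5a receptor, and Ccdc9. C5ar1 differed by 0.72, against -0.21 for C5ar2 and -0.15 for Ccdc9. Of 12 flanking genes outside the group, 9 passed the filter, with differences from -0.21 to 0.40 and 0 at 2-fold. Those not yet named were Adamts4 (0.40) and Apoa2 (0.07) beside Fcer1g, H2bc18 (0.40) beside Fcgr1, Epha8 (0.26) beside C1qa, and Foxj2 (0.21) and Necap1 (-0.01) beside C3ar1. Platr30, beside Fcgr1, and Lactbl1, beside C1qb, did not pass.

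**Figure D3:**
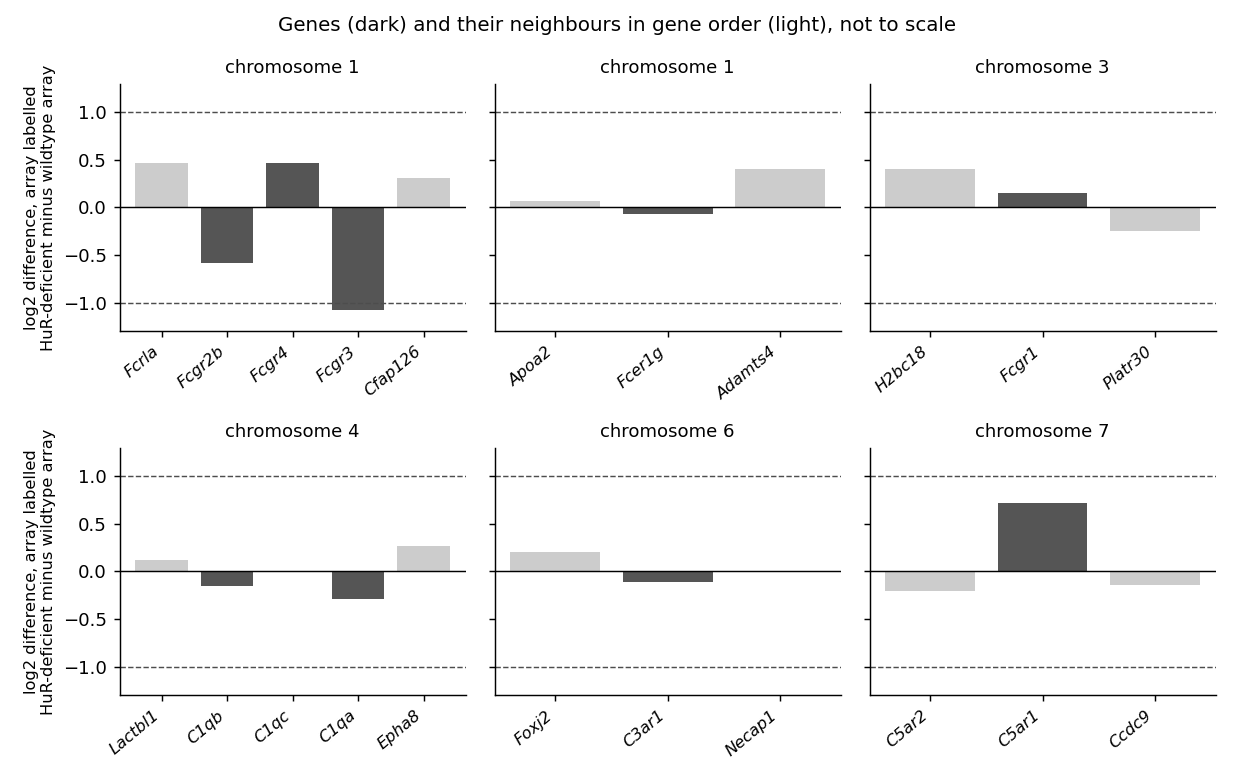
Log2 difference (array labelled HuR-deficient minus wildtype array) of the 10 genes (dark bars) and the nearest measured genes on each side (light bars), in gene order from low to high coordinate and not to scale; dashed lines mark 2-fold. On chromosome 1 the bars of Fcgr2b (-0.59), Fcgr4 (0.46) and Fcgr3 (-1.08) alternate, and on chromosome 7 C5ar1 (0.72) stands between 2 bars below 0.

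Counts in the gene lists that follow stand beside 10903 named genes above 0 and 10273 below. At 2-fold, 0.882% of the 11905 genes that passed were higher and 1.11% lower. In lists of this size, 0 or 1 gene at 2-fold describes the arrays and does not test the list. Other Fc receptors were mostly at low signal. Of 13 measured, 9 lay above 0 and 3 below, with a median of 0.19, and the 3 that passed the filter were all higher by less than 2-fold. Fcgrt encodes the neonatal Fc receptor, which rescues IgG from degradation, and had 6.14 on the array labelled HuR-deficient and 5.29 on the wildtype array, a difference of 0.85. Trim21, a cytosolic Fc receptor that marks antibody-bound viruses for destruction, had 7.28 and 6.62 in the same order, a difference of 0.66. Fcrl1, an Fc receptor-like gene known from B cells and named after its value was seen, had 8.75 and 8.36, a difference of 0.39.

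Downstream of the activating receptors, 39 of 43 listed kinases, adaptors and effectors were measured. Of these 18 lay above 0 and 21 below, with a median of -0.04, and of the 30 that passed 0 were at 2-fold in either direction. Pik3cb, a catalytic subunit of PI 3-kinase, had 5.45 on the array labelled HuR-deficient and 6.21 on the wildtype array, a difference of -0.76. Sos1, a Ras exchange factor, differed by -0.76 from a wildtype signal of 4.39, barely at the floor. Pik3r1, a regulatory subunit of PI 3-kinase, differed by 0.62 and the kinase gene Src by 0.48. Syk, the kinase that docks on the ITAM and is named here for that role after its value was seen, had 4.23 on the array labelled HuR-deficient and 4.07 on the wildtype array and did not pass. The list of other ITAM adaptors, which also holds Hcst although its product has no ITAM, had a median of 0.00 over 7 measured genes. Tyrobp, which encodes the adaptor DAP12, had 12.37 and 12.43 in that order, and Hcst, which encodes DAP10, had 9.27 and 9.95, a difference of -0.67. The T cell receptor chain genes Cd3d (4.48 and 3.96, difference 0.52) and Cd3e (4.46 and 4.33, difference 0.13) also passed, each with a wildtype signal under the floor.

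On the inhibitory side, 15 of 16 listed genes of phosphatases, adaptors and other inhibitory receptors were measured. Of these 10 lay above 0 and 5 below, with a median of 0.19, and of the 14 that passed 1 was lower by 2-fold or more and 0 were higher by as much. Over all genes that passed, 1.11% were lower by as much and 0.882% higher. The gene lower by 2-fold was Lilrb4a, an inhibitory receptor with ITIMs and not a part of the Fcgr2b pathway listed here. It had 10.24 on the array labelled HuR-deficient and 11.53 on the wildtype array, a difference of -1.28. None of the phosphatase and adaptor genes that passed reached 2-fold. Ptpn22, a phosphatase that restrains Src-family and Syk-family signalling in lymphocytes, differed by -0.65, the adaptor gene Dok3 by 0.49 and the ubiquitin ligase gene Cbl by 0.39. Inpp5d encodes SHIP1, the phosphatase that Fcgr2b recruits, and is named after its value was seen. It had 4.92 on the array labelled HuR-deficient and 4.73 on the wildtype array, a difference of 0.19.

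The measured complement genes outside C1q gave few signals above the floor. Of 26 listed components 23 were measured, and C3 was not among the 23. Of these 4 passed, and 0 of them were at 2-fold. Cfb, which encodes factor B of the alternative pathway, had 8.83 on the array labelled HuR-deficient and 8.19 on the wildtype array, a difference of 0.64. Cfp, which encodes properdin, the stabiliser of the alternative pathway convertase, differed by 0.31, and Fcna, which encodes ficolin A of the lectin pathway, by -0.33. The median over the 23 was 0.15, with 14 above and 9 below 0. Of 19 listed regulators 16 were measured, of which 5 passed and 0 were at 2-fold, with a median of 0.04. Cd59a, which blocks the membrane attack complex, had 5.26 on the array labelled HuR-deficient and 6.13 on the wildtype array (difference -0.88), and Cr1l, which encodes the rodent regulator Crry, differed by -0.31. Cd55, which speeds the decay of convertases, differed by 0.82 and Susd4 by 0.28, with wildtype signals of 3.61 and 4.24 that did not reach the floor.

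Among 15 other complement and C1q receptors, 6 lay above 0 and 9 below, with a median of -0.21. Of the 8 that passed, 1 was higher by 2-fold or more and 0 were lower by as much. Over all genes that passed, 0.882% were higher by as much and 1.11% lower. Scarf1, a scavenger receptor known to bind C1q on dying cells, had 5.40 on the array labelled HuR-deficient and 4.34 on the wildtype array, just below the floor, a difference of 1.06. Itgb2, the shared beta chain of complement receptors 3 and 4, differed by -0.56, Cd33 by -0.74 and C1qbp by 0.12. Cd33 had 4.30 on the array labelled HuR-deficient, below the floor. The list of chemoattractant receptors, of the same receptor class as C3ar1 and C5ar1, held genes on both sides of 0. Of 18 listed, 12 were measured and 9 passed, with 1 past 2-fold in each direction and a median of -0.22 over the 12. Ccrl2, an atypical member that presents chemerin and is not known to signal through G proteins, had 8.79 on the array labelled HuR-deficient and 7.53 on the wildtype array (difference 1.26), and Ptafr, the receptor of platelet-activating factor, had 5.59 and 6.74 (difference -1.15). Fpr2, a formyl peptide receptor, differed by 0.79. Ccr1, a chemokine receptor, differed by -0.95, with a signal below the floor (3.92) on the array labelled HuR-deficient.

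**Figure D4:**
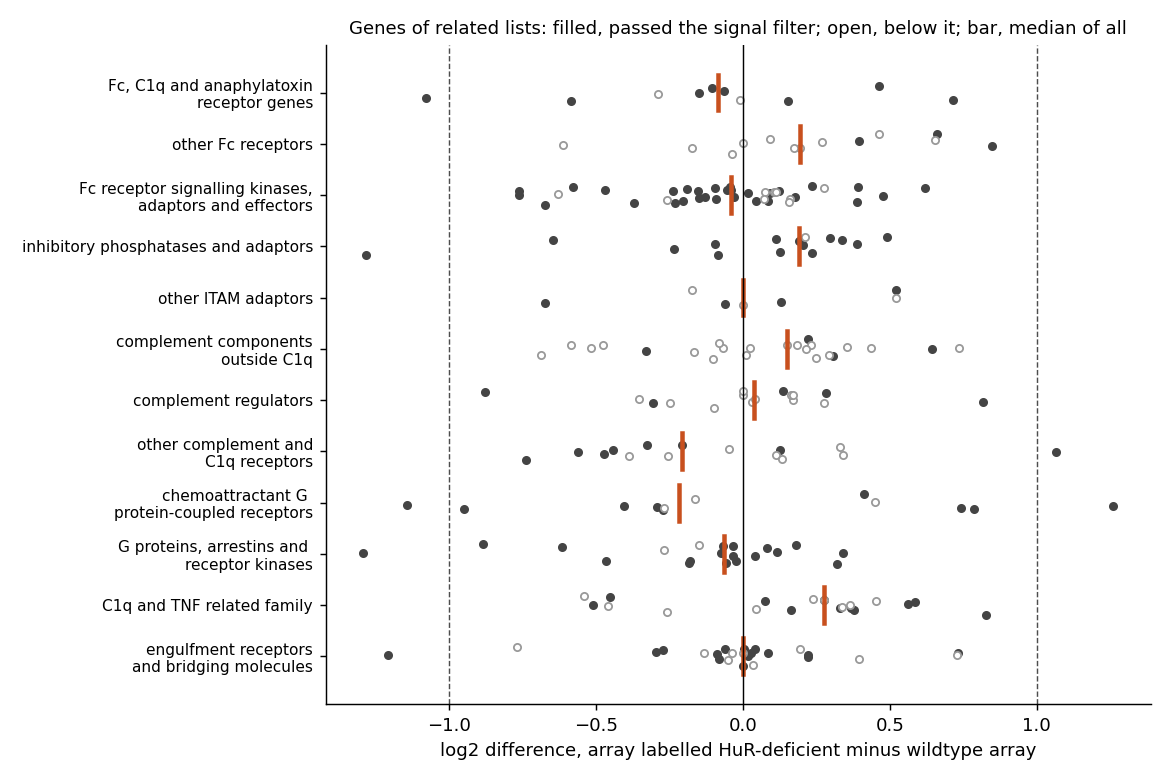
Log2 difference (array labelled HuR-deficient minus wildtype array) of the 10 genes (top row) and of the genes of related lists; filled points passed the signal filter, open points did not, orange bars are medians over all measured genes and dashed lines mark 2-fold. Medians run from -0.22 for chemoattractant receptors to 0.28 for the C1q and TNF related family, and points past 2-fold are few in every row.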

How the data were processed

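RNA of 2 cultures was labelled with biotin and measured on 1 Affymetrix array each. The deposited log2 values were made by the authors with RMA, per the submitters' processing notes, which give no version, annotation or build. RMA forces the probe intensities of both arrays to 1 distribution before they are summarised, so a change in total mRNA cannot be seen. Precision is limited by the number of arrays.

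The platform table gave 1 symbol to 23521 probe sets, which were used, several to 1814 and none to 16010. Where a gene had more than 1 probe set (1082 genes), that with the highest mean signal stood for it. No significance test was run. Genes were counted at 2-fold (and 1.5-fold), and list medians cover all measured members. The 10 genes and the 17 lists (253 symbols, 229 measured) were chosen with earlier results of these data known. Named are the 10 genes, their nearest neighbours in gene order (GRCm38.p6, RefSeq), Elavl1 and, per list, the 2 largest differences in each direction and all past 2-fold among genes that passed. Counting was tested on simulated data with large changes in genes of high signal. That setting does not cover differences near 2-fold at low signal. Alternatives were centring, renewed quantile normalisation, removal of a loess trend (span 0.3), averaged probe sets, other filters, thresholds and summaries. Tools were Python 3.11.15 with pandas 2.3.3, numpy 2.4.6, matplotlib 3.10.9 and statsmodels 0.14.6.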

Additional observations from a re-analysis of the deposited data

How the results depend on the processing

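Centring subtracted 0, the median difference, and each of the 10 genes had 1 probe set. Centring and averaging of probe sets therefore could not move them. Renewed quantile normalisation and loess removal moved no difference of the 10 genes by more than 0.0472, and Fcgr3 stayed between -1.081 and -1.078. C1qc, near 0, ran from -0.02 to 0.01. Under those 4 settings and under either other filter, 1 gene of the 10 was at least 2-fold lower and 0 higher. At 1.5-fold 2 were lower and 1 higher, and at 3-fold 0 in either direction. Over all genes, 185 were higher and 232 lower with no filter, 55 and 76 with both arrays at the floor, 648 and 633 at 1.5-fold, and 22 and 33 at 3-fold. Fcgr2b minus the activating genes was -0.45 with their mean.

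Limited to genes that passed, list medians were 0.66 for other Fc receptors, 0.26 for complement components, 0.14 for complement regulators and -0.38 for other complement and C1q receptors. For cell type markers they were 0.21 (B cell), 0.19 (T and NK cell), -0.40 (mast cell and basophil), 0.74 (neutrophil) and -0.11 (dendritic cell), each over 3 genes or fewer. The neutrophil value is that of Cxcr2 alone and the mast cell and basophil value that of Kit alone. Neither gene, nor Cd3e or Cd4, reached the floor on both arrays. The filter used the higher value, so genes near the floor can enter through the array where they are high, and these medians give no direction. Means in place of medians gave 0.0159 for inhibitory phosphatases and adaptors, 0.0443 for complement components, -0.0891 for other complement and C1q receptors, 0.0121 for chemoattractant receptors and 0.15 for the C1q and TNF related family. For markers they gave 0.23 (macrophage), -0.15 (T and NK cell) and 0.0864 (neutrophil). The signs of the dendritic cell, B cell, T and NK cell and neutrophil markers, of macrophage markers and of chemoattractant receptors thus depended on the summary.

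No paired analysis was possible because each group had 1 array. No array was left out for the same reason, and differences between cultures and between hybridisations cannot be told apart.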

Other observations

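C1q shares its globular head with a larger family of secreted proteins. Of 20 measured genes of the C1q and TNF related family, 15 lay above 0 and 5 below, with a median difference of 0.28, and of the 11 that passed the signal filter 0 were at 2-fold. Over all named genes, 10903 lay above 0 and 10273 below. Emilin1, an elastic fibre protein gene, had 4.56 on the array labelled HuR-deficient and 3.74 on the wildtype array, and C1ql2 had 4.46 and 3.87 in the same order. C1qtnf12 (-0.51) and Cbln2 (-0.45) lay lowest among those that passed. The 4 named genes all had a signal below the floor on 1 of the arrays.

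Engulfment receptors and their bridging molecules, which clear dying cells, had a median difference of 0.00 over 24 genes, and of the 15 that passed 1 was lower by 2-fold or more and 0 were higher by as much. Over all genes that passed, 1.11% were lower by as much and 0.882% higher. Pros1, which encodes the bridging molecule protein S, had 4.31 on the array labelled HuR-deficient, below the floor, and 5.52 on the wildtype array. Itgb5, an integrin chain that binds the bridging molecule Mfge8, differed by 0.73, Mfge8 itself by 0.22 and the lipid receptor gene Trem2 by -0.30. Of 22 listed G protein, arrestin and receptor kinase genes, 20 were measured. Among these 6 lay above 0 and 14 below, beside 10903 and 10273 of all named genes. Their median was -0.06. Grk5, a kinase that desensitises G protein-coupled receptors, had 4.03 on the array labelled HuR-deficient, below the floor, and 5.33 on the wildtype array, a difference of -1.29. Gnb1, a G protein beta subunit gene, differed by -0.89, Gnai1 by 0.34 and Grk6 by 0.32. The wildtype signal of Gnai1, 4.15, lay below the floor.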
